A study of Mus musculus with 10 samples.

Results

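Astrocyte genes were followed in cultured neural stem cells. The 9 genes Gfap, Aqp4, Aldh1l1, S100b, Slc1a2, Aldoc, Gja1, Sparcl1 and Apoe were taken by their symbols from a count table of 52632 genes. Each symbol matched 1 row, and all 9 genes passed the filter on low counts that left 17110 genes for testing. The study set cells heterozygous for the E147A change in SMCHD1, a chromatin protein known for its role in gene silencing, against +/+ cells. Cells came from the cortices of single embryos at embryonic day 14.5 and were grown as a monolayer on laminin with EGF and basic FGF, each at 20 ng/mL.

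There were 10 libraries, each from its own embryo. Female E147A/+ (n = 2) came from litters 1 and 2, and female +/+ (n = 2) both from litter 3. Male E147A/+ (n = 3) came from litters 1, 1 and 3, and male +/+ (n = 3) from litters 4, 1 and 3. Only the E147A allele was tagged with GFP (Smchd1 GFP-E147A/+), and the effects of tag and mutation cannot be told apart. All females, of both genotypes, were also Xist deltaA/+, and males were XY. Per the labels every embryo was an F1 of a Castaneus (Cast) father and a 129/C57 F1 mother. The allele counts of the 4 females go against this at several of the 9 loci, where whole regions had almost no Cast counts. In females genotype and litter cannot be told apart, because no litter held both genotypes. The p-values below measure the spread between these cultures.

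Astrocytes are glia that support neurons: they take up glutamate, buffer water and ions, couple through gap junctions, and secrete lipoproteins and matrix proteins. Neural stem cells of the cortex share part of this programme, and cortical progenitors turn to making astrocytes only late in development. GFAP is the intermediate filament of mature and reactive astrocytes. AQP4 is the water channel of astrocyte endfeet, GLT-1 (Slc1a2) the main glutamate transporter, and connexin 43 (Gja1) the main gap junction protein. ALDH1L1 is a folate enzyme, aldolase C (Aldoc) a glycolytic enzyme, S100B a calcium-binding protein, SPARCL1 (hevin) a secreted matrix protein that acts on synapses, and APOE the main lipoprotein of the brain.

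Libraries held 20648916 to 44519020 counts. Summed levels of 9 neural stem cell markers were 4720 to 6792 CPM (counts relative to library size, scaled by TMM factors), and none of them was at 0 in any library. The 6 cycling markers summed to 1219 to 2778 CPM. Markers of cells that a cortical culture could also hold were low for microglia (7 markers, 0.276 to 2.83 CPM), endothelium (5 markers, 0.737 to 3.78) and mesenchyme (6 markers, 5.40 to 29.9). The 8 neuron markers summed to 573 to 1035 CPM, of which Map2 alone gave 477 to 982. The 9 oligodendrocyte lineage markers summed to 1359 to 2043 CPM, mostly Olig1 and Olig2, and Mog was at 0 in 9 libraries. In bulk RNA, fewer cells of a type and less RNA per cell cannot be told apart. Smchd1, read as a check of the labels, was at 94.2 to 128 CPM in E147A/+ and 122 to 192 in +/+, and gene counts cannot show the E147A change itself.

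Sequence upstream of the start is shown for the least abundant gene, for the gene most variable for its level, and for the steadiest. The 250 bases before the RefSeq start (GRCm38.p6) were searched on both strands for 5 motifs, and capitals mark a match. The motif of STAT factors (TTCNNNGAA) was held by 7.14% of 27025 promoters of this length. The short motif of NFI factors (TTGGCA) was held by 12.5% of them, and that of SOX factors (ACAATG) by 10.9% of them. A TATA box (TATAAA) was present in 13% of all these promoters, and the E-box (CAGCTG) in 12.7% of them.
Gfap (chr11:102897201-102897450, minus strand, inside the annotated span of Gfap and of the lincRNA Gm26668 and outside their exons): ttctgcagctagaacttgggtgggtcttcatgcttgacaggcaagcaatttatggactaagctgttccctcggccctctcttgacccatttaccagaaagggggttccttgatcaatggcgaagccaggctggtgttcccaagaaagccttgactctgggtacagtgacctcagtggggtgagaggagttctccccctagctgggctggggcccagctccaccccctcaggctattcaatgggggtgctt
Apoe (chr7:19699189-19699438, minus strand, in no annotated gene): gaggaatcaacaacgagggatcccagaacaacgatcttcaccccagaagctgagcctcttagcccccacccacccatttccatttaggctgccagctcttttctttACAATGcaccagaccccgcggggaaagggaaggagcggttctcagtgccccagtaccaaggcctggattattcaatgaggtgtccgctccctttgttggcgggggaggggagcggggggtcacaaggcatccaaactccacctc
Gja1 (chr10:56377050-56377299, plus strand, in no annotated gene): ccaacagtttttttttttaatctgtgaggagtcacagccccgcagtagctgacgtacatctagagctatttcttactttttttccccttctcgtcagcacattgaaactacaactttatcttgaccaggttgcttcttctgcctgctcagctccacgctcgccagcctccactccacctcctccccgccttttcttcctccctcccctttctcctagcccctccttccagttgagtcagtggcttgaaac
The Apoe window held 1 SOX motif 144 bases before the start, and the Gfap and Gja1 windows held none of the motifs. CpG dinucleotides numbered 2 in the Gfap window, 6 in that of Gja1 and 8 in that of Apoe, against a median of 6 over all promoters. Aqp4 and Sparcl1 were not searched. Among the other members, the windows of S100b and Aldoc held 1 NFI motif each, and those of Aldh1l1 and Slc1a2 held none. These matches describe letters in a window and say nothing of binding.

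The 9 genes spanned more than 3 orders of magnitude in level. Compared between genes as RPKM (reads scaled by exon length and library size), the medians over 10 libraries were 251 for Sparcl1, 54.5 for Aldoc, 29.1 for Apoe, 13.3 for Gja1, 12.5 for Aldh1l1, 4.47 for Slc1a2, 1.31 for S100b, 0.193 for Aqp4 and 0.185 for Gfap. The matrix and glycolytic genes were thus among the more abundant transcripts of these cells. The RPKM of Sparcl1 lay at the 96.0th to 99.3rd percentile of tested genes and that of Aldoc at the 93.3rd to 95.7th. Gfap and Aqp4, the filament and endfoot genes of mature astrocytes, lay at the 1.97th to 28.4th and the 6.73rd to 30.1st. Some neighbours in this order could not be separated. Sparcl1 exceeded Aldoc in 10 of 10 libraries and Apoe exceeded Gja1 in 9, as S100b exceeded Aqp4. Aldoc exceeded Apoe, Aldh1l1 exceeded Slc1a2 and Slc1a2 exceeded S100b in 8 of 10 each. Gja1 exceeded Aldh1l1, and Aqp4 exceeded Gfap, in only 6.

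Gfap (ENSMUSG00000020932, chromosome 11, 102887336 to 102900912, minus strand) was the least abundant of the 9 by its median RPKM. Its level was 0.860 and 0.668 CPM in female +/+, 0.762 and 0.0925 in female E147A/+, 4.93, 1.17 and 0.371 in male +/+, and 0.670, 2.68 and 0.798 in male E147A/+. These levels rest on 4 to 143 counts, with 4 in female E147A/+ replicate 2, where 3 counts correspond to 0.0693 CPM. Male +/+ replicate 1, the only library of litter 4, was the highest and male E147A/+ replicate 2 the next, and all groups overlapped. Gm26668 lies across Gfap on the opposite strand, and whether counting used strand is not given in the sources used here.

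Aqp4 (ENSMUSG00000024411, chromosome 18, 15389496 to 15410982, minus strand) was low in most cultures. It read 3.92 and 1.00 CPM in female +/+, 3.16 and 1.36 in female E147A/+, 8.42, 1.46 and 0.742 in male +/+, and 0.964, 1.04 and 0.465 in male E147A/+. Male +/+ replicate 1 again stood highest, and the 3 male E147A/+ libraries were among the 5 lowest. These levels rest on 14 to 244 counts.

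Slc1a2 (ENSMUSG00000005089, chromosome 2, 102658659 to 102790784, plus strand), the glutamate transporter, varied 12.6-fold between cultures. Its level was 30.2 and 54.1 CPM in female +/+, 74.5 and 20.5 in female E147A/+, 257, 67.7 and 29.3 in male +/+, and 106, 63.3 and 42.5 in male E147A/+. Male +/+ replicate 1 was more than 100 CPM above every other library. The other high-affinity transporter of glia, Slc1a3 (GLAST), which neural stem cells also use, ran from 631 to 1146 CPM over the same libraries.

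Apoe (ENSMUSG00000002985, chromosome 7, 19696109 to 19699188, minus strand), the lipoprotein, varied 11.4-fold. It read 82.2 and 56.3 CPM in female +/+, 68.0 and 24.7 in female E147A/+, 281, 77.7 and 34.0 in male +/+, and 49.2, 48.0 and 162 in male E147A/+. Male +/+ replicate 1 and male E147A/+ replicate 3 were the high cultures, and they belong to different genotypes and litters.

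Sparcl1 (ENSMUSG00000029309, chromosome 5, 104079111 to 104113733, minus strand), the secreted matrix protein, was the most abundant member by RPKM in 9 of 10 libraries, and in male E147A/+ replicate 3 it was level with Apoe (75.4 and 75.6 RPKM). Its level was 654 and 297 CPM in female +/+, 901 and 1064 in female E147A/+, 821, 882 and 418 in male +/+, and 868, 531 and 221 in male E147A/+. The female genotypes did not overlap, while the male ones did. The 3 lowest levels, 221, 297 and 418 CPM, were all from litter 3.

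Aldh1l1 (ENSMUSG00000030088, chromosome 6, 90486427 to 90600203, plus strand), the folate enzyme, read 71.0 and 37.4 CPM in female +/+, 112 and 97.1 in female E147A/+, 64.0, 53.2 and 32.8 in male +/+, and 31.0, 41.5 and 59.7 in male E147A/+. Both female E147A/+ libraries lay above the other 8. S100b (ENSMUSG00000033208, chromosome 10, 76253853 to 76261159, plus strand), the calcium-binding protein, read 2.01 and 1.16 CPM in female +/+, 1.89 and 4.42 in female E147A/+, 1.28, 2.30 and 4.02 in male +/+, and 3.48, 1.27 and 1.53 in male E147A/+. S100b was low in male +/+ replicate 1, the culture in which Gfap, Aqp4, Slc1a2 and Apoe were highest. The gene Dip2a overlaps S100b on the opposite strand, so its 37 to 191 counts are uncertain.

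Aldoc and Gja1 were steady. Aldoc (ENSMUSG00000017390, chromosome 11, 78322968 to 78327781, plus strand) was at 155 and 195 CPM in female +/+, 180 and 176 in female E147A/+, 209, 169 and 191 in male +/+, and 141, 194 and 154 in male E147A/+. Gja1 (ENSMUSG00000050953, chromosome 10, 56377330 to 56402513, plus strand) was at 133 and 143 CPM in female +/+, 135 and 134 in female E147A/+, 132, 130 and 139 in male +/+, and 138, 146 and 170 in male E147A/+. No annotated gene overlaps Aldoc, Gja1 or Apoe. Antisense genes overlap Aqp4 (AC133525.2), Aldh1l1 (Gm15756), Slc1a2 (Gm13872) and Sparcl1 (Gm26703), and Gm45901 and Gm44236 lie across Aldh1l1 on its own strand, so the counts of these 4 genes are uncertain to that extent.

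**Figure D1:**
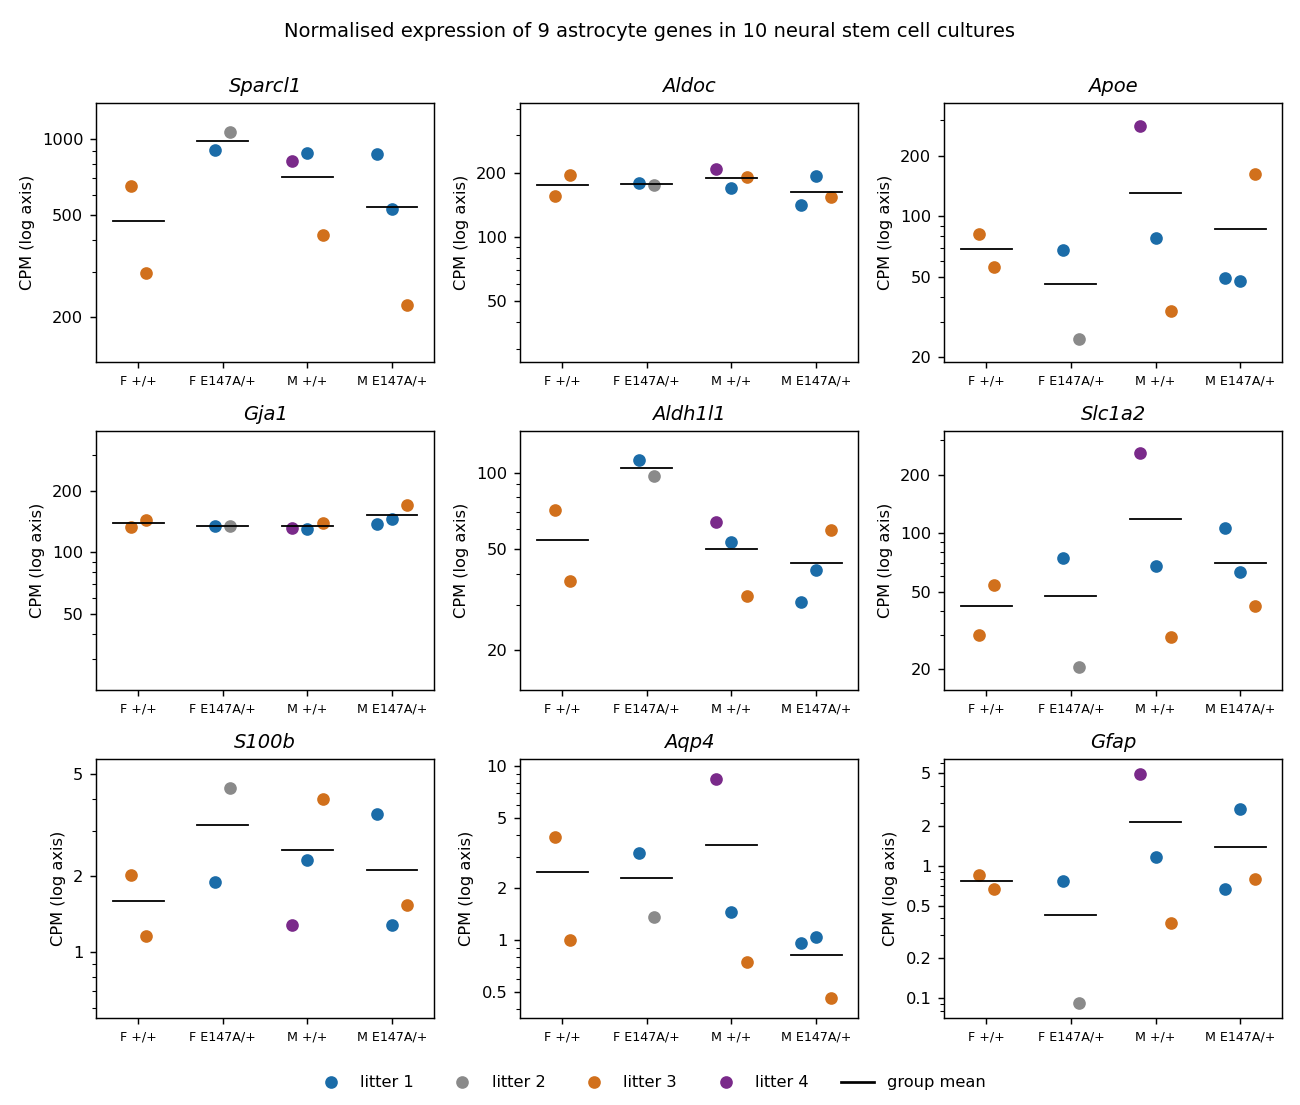
Level of each of the 9 genes in 10 libraries, as TMM-scaled CPM on a log axis, by sex and genotype; points are libraries coloured by litter and lines are group means. Gja1 stayed between 130 and 170 CPM, while Slc1a2 ran from 20.5 to 257 and the litter 4 library was the highest for Gfap, Aqp4, Slc1a2 and Apoe.

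The spread between cultures separated the genes into steady and variable ones. The SD of log2 CPM over 10 libraries was 0.11 for Gja1 and 0.18 for Aldoc, against a median of 0.38 over all tested genes. It was 0.64 for Aldh1l1, 0.69 for S100b, 0.76 for Sparcl1, 1.03 for Apoe, 1.05 for Slc1a2, 1.21 for Aqp4 and 1.37 for Gfap, and 1.01 was the 90th percentile of tested genes. Low counts widen the spread, so each gene was set against the 500 tested genes nearest to it in mean level. Apoe was then at the 99.6th percentile of spread, Slc1a2 at the 99.2nd, Sparcl1 at the 98th, Aldh1l1 at the 94.6th, Gfap at the 92.8th, Aqp4 at the 89.0th, S100b at the 59.1st, Aldoc at the 25.2nd and Gja1 at the 6.79th. Male +/+ replicate 1 had the highest mean z-score over the 9 genes, 0.94, followed by female E147A/+ replicate 1 at 0.34. Male +/+ replicate 3 and female +/+ replicate 2, both of litter 3, were lowest at -0.38 and -0.36.

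**Figure D2:**
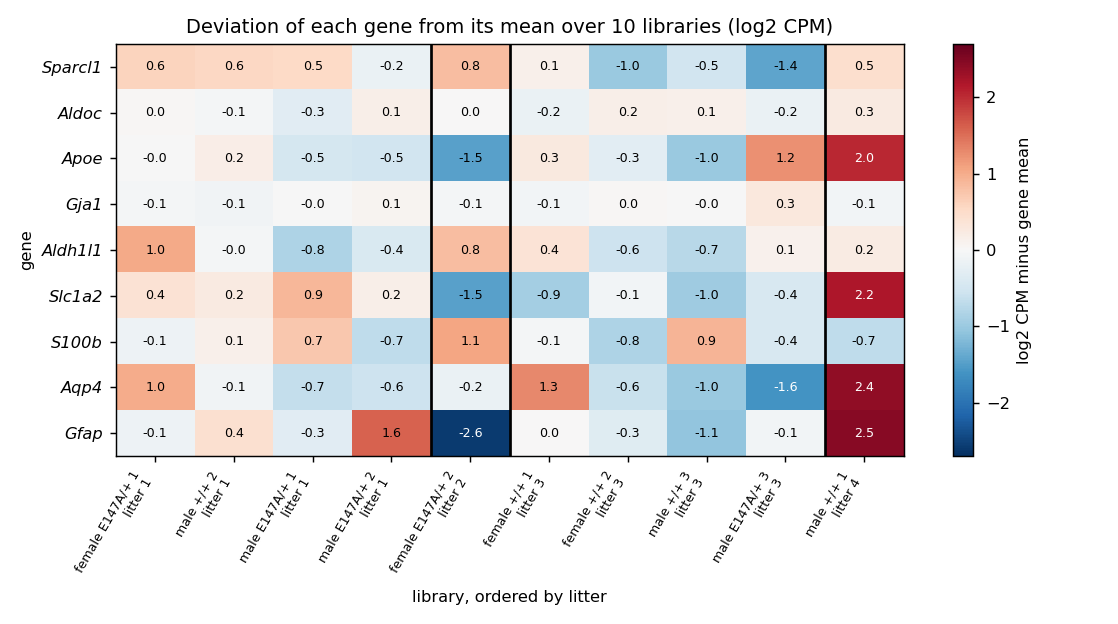
Deviation of log2 CPM from each gene's mean over 10 libraries, with genes in rows and libraries in columns ordered by litter. The litter 4 library was above the mean by 2.0 to 2.5 for Apoe, Slc1a2, Aqp4 and Gfap and below it for S100b and Gja1.

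Litter 4 was represented by this 1 male +/+ culture, so litter, embryo and library cannot be told apart there. Its cycling markers summed to 1385 CPM, with only 1 library lower, and its neural stem cell markers to 4780, again with 1 library lower. Male E147A/+ replicate 3, the other culture high in Apoe, had the lowest cycling sum (1219 CPM) and the highest neural stem cell sum (6792). Vim gave the largest part of the stem cell sum in both cultures: it was at its lowest in male +/+ replicate 1 (1568 CPM) and its highest in male E147A/+ replicate 3 (3936). Other stem cell markers did not all follow the sum. In male +/+ replicate 1 Hes5 was the highest of 10 libraries (28.9 CPM) and Slc1a3 (1114) and Prom1 (56.2) the next to highest. In male E147A/+ replicate 3 Sox2 (178), Hes5 (2.66) and Pou3f2 (19.3) were the lowest of 10, and Slc1a3 (1146) and Prom1 (70.6) the highest. The part of these marker levels in the astrocyte gene levels was not tested.

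E147A/+ cultures did not differ detectably from +/+ cultures in any of the 9 genes. Over both sexes edgeR's quasi-likelihood test called 0 of 9 at an adjusted p under 0.05, and 0.0818% of all tested genes. The log2 fold changes (E147A/+ minus +/+) were 0.38 for Aldh1l1 (SE 0.26), 0.36 for S100b (SE 0.46), 0.33 for Sparcl1 (SE 0.38) and 0.07 for Gja1 (SE 0.10). They were -0.10 for Aldoc (SE 0.13), -0.29 for Slc1a2 (SE 0.58), -0.59 for Apoe (SE 0.59), -0.74 for Gfap (SE 0.79) and -1.11 for Aqp4 (SE 0.69). Adjusted p in this edgeR test was 0.824 to 0.925, with 0 of 9 at an unadjusted p under 0.05, against 5.9% of all tested genes. The median over the 9 genes was -0.10, and over all tested genes -0.01. None of the 9 genes separated the 5 E147A/+ libraries from the 5 +/+ libraries, where 0.695% of tested genes did so upward and 0.742% downward. DESeq2 and limma-voom also called 0 of 9, where 113 and 29 of all genes passed.

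The 95% intervals give the folds compatible with these cultures. The interval of the fold was 0.893 to 1.23 for Gja1 and 0.760 to 1.15 for Aldoc. For Aldh1l1 it was 0.874 to 1.95, and for Gfap it ran from 0.178 to 2.02, so both a fall and a rise of Gfap within that range were compatible with the counts. Of the 9 genes, Gfap, Slc1a2 and Apoe changed sign when single libraries were left out, and the other 6 did not. Leaving out male +/+ replicate 1 moved the log2 fold change of Slc1a2 to 0.36, of Gfap to 0.01 and of Apoe to 0.03, and that of Slc1a2 was 0.05 without female E147A/+ replicate 2. Other settings turned more of the genes. With litter as a covariate S100b was at -0.16, Sparcl1 at -0.54, Slc1a2 at 0.074 and Apoe at 0.52. Without litters 2 and 4 Aqp4 was at 6e-04. Only Aldh1l1, Aldoc and Gja1 kept their sign in every setting.

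Within females, 0 of 9 genes passed, against 0.0117% of tested genes. Aldh1l1 had a log2 fold change of 0.95 (95% interval 0.05 to 1.85, adjusted p 0.964 in edgeR) and an unadjusted p of 0.0407. That of Sparcl1 was 1.05 (95% interval -0.27 to 2.37). Both genes were higher in each E147A/+ library than in each +/+ library, as were 21.8% of all tested genes in this comparison of 2 with 2. Genotype and litter cannot be told apart here, and with litter as a term the log2 fold change of Sparcl1 in females was -0.48.

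Within males, 0 of 9 genes passed, against 0.0234% of tested genes. Of the 9 log2 fold changes, 8 were negative and that of Gja1 was 0.18 (SE 0.13). The median was -0.39, against -0.02 over all tested genes. Aqp4 had the largest difference, -2.10 (95% interval -4.13 to -0.07, adjusted p 1 in edgeR), with an unadjusted p of 0.0438. It was -0.40 without male +/+ replicate 1, whose 8.42 CPM set the male +/+ mean of 3.54 ± 4.24 (SD, n = 3). The male E147A/+ mean was 0.823 ± 0.312 (SD, n = 3). Litters 1 and 3 each held both male genotypes, with 1 +/+ library in each, so the values by litter have no replicate check. E147A/+ minus +/+ for Aqp4 was -0.51 in litter 1 and -0.61 in litter 3 (log2 CPM). For Apoe the same difference was -0.68 in litter 1 and 2.25 in litter 3, and for Aldh1l1 it was -0.57 and 0.86. Slc1a2 (0.28 and 0.53) and Gfap (0.20 and 0.99) had a positive difference in both litters, opposite to the pooled male values of -0.74 and -0.65, which include the litter 4 culture. In litter 1, however, 1 of the 2 E147A/+ males lay below the +/+ male for each gene, at 63.3 against 67.7 CPM for Slc1a2 and 0.670 against 1.17 for Gfap.

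The female and male differences were compared with an interaction term, and 0 of 9 genes passed, as did 0% of all tested genes (314 of 17110 at an unadjusted p under 0.05; 2 genes passed in DESeq2). The lowest unadjusted p among the 9 was 0.0543, for Aldh1l1, with a difference of 1.1 (SE 0.52) between the sexes' log2 fold changes. Between females and males 0 of 9 genes passed, against 0.0292% of tested genes. Aldh1l1 was 0.68 higher in females on the log2 scale (SE 0.26, unadjusted p 0.0238, adjusted p 0.975 in edgeR).

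**Figure D3:**
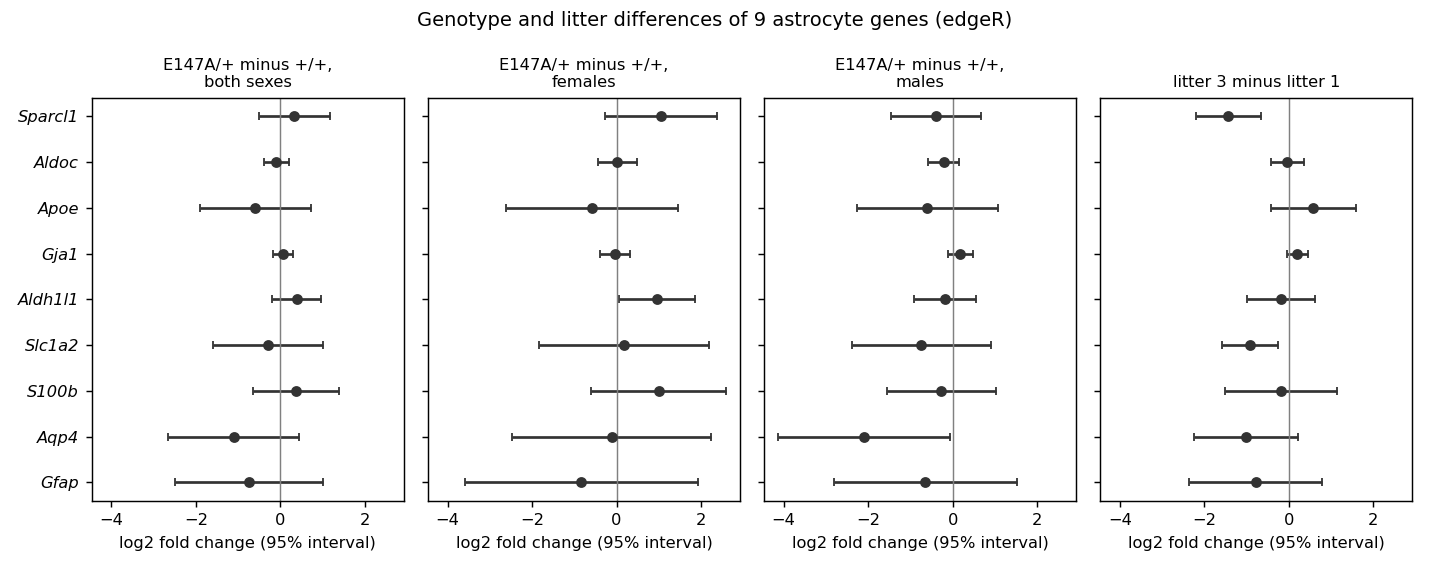
Log2 fold change of each gene with its 95% interval from edgeR for E147A/+ minus +/+ over both sexes, in females and in males, and for litter 3 minus litter 1. Intervals are narrow for Aldoc and Gja1, wide for Gfap and Aqp4, and those of Sparcl1 and Slc1a2 lie below 0 for litter.

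The cultures were also compared by litter. The median absolute log2 fold change of the 9 genes was 0.58 between litters and 0.36 between genotypes over both sexes, and over all tested genes 0.32 and 0.20. Litter 3 was compared with litter 1 (4 libraries each) with sex and genotype as terms, because 3 of the litter 1 cultures and 1 of the litter 3 cultures were E147A/+. Sparcl1 was at 796 ± 177 CPM (SD, n = 4) in litter 1 and 398 ± 189 (SD, n = 4) in litter 3, with a log2 fold change of -1.43 (95% interval -2.21 to -0.65). Its adjusted p was 0.0628 in edgeR, above the threshold of 0.05, and its unadjusted p 0.00292. The libraries overlapped only through male E147A/+ replicate 2 at 531 CPM in litter 1 and female +/+ replicate 1 at 654 in litter 3. Slc1a2 was at 77.9 ± 19.4 CPM (SD, n = 4) in litter 1 and 39.0 ± 11.7 (SD, n = 4) in litter 3, with a log2 fold change of -0.92 (95% interval -1.59 to -0.25, adjusted p 0.12 in edgeR). Its 4 litter 3 libraries, at most 54.1 CPM, lay below its 4 litter 1 libraries, at least 63.3. Such separation was also seen downward in 11.4% and upward in 9.67% of tested genes.

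By this test 0 of 9 genes passed, where 3.16% of all tested genes did, and 2 of 9 had an unadjusted p under 0.05, against 22.7% of all. The median of the 9 log2 fold changes was -0.19, against 0.00 over all tested genes. Of the remaining genes, Aqp4 was at -1.02 (SE 0.53), Gfap at -0.79 (SE 0.68), S100b at -0.19 (SE 0.57), Aldh1l1 at -0.18 (SE 0.35), Aldoc at -0.04 (SE 0.17), Gja1 at 0.20 (SE 0.11) and Apoe at 0.58 (SE 0.44). DESeq2 called Sparcl1 (adjusted p 0.000166) and Slc1a2 (0.0233), and edgeR without a filter on low counts called these and Apoe. Those 2 settings called 1977 and 2110 of all genes, against 541 in the main fit. Sparcl1 also passed without female +/+ replicate 2, and Apoe, at 1.82, without male +/+ replicate 2. Apoe was at -1.01 without male E147A/+ replicate 3, so its direction rests on that library. Over all settings Sparcl1 stayed between -1.69 and -1.14 and Slc1a2 between -1.10 and -0.81. Summed markers of other cells are given by litter, without a test of the sums. Mesenchymal markers summed to 5.40 to 11.3 CPM in litter 1 and 11.5 to 29.9 in litter 3, and endothelial markers to 0.737 to 2.41 and 2.93 to 3.78. Ependymal markers summed to 2.07 to 4.50 and 4.39 to 25.4 CPM, neural stem cell markers to 4900 to 6204 and 4720 to 6792, and cycling markers to 1769 to 2069 and 1219 to 2778. The mesenchymal and endothelial ranges did not overlap and the other 3 did; of the single markers in these 5 lists, Col3a1, Hes5 and Pou3f2 passed. The part of these markers in the litter difference was not tested.

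The 9 genes did not vary as a block. Of 36 pairs, 18 had a positive Pearson's r of log2 CPM over 10 libraries and 18 a negative one, with a median of 0.01. No pair passed an adjusted p of 0.05 in a permutation test of r or of Spearman's rho over 36 pairs, and 7 had an unadjusted p under 0.05 for r. Libraries of 1 litter are from litter mates, so these libraries are not fully independent. The highest r joined the filament gene to the glutamate transporter and the lipoprotein. It was 0.79 for Gfap and Slc1a2 (rho 0.59, permutation p 0.00842, adjusted 0.117), 0.73 for Gfap and Apoe (rho 0.69, permutation p 0.0174, adjusted 0.156) and 0.66 for Slc1a2 and Apoe (rho 0.47, permutation p 0.0411, adjusted 0.211). Without the 2 libraries farthest from the median of the first gene of each pair, female E147A/+ replicate 2 and male +/+ replicate 1, these fell to 0.32, 0.14 and -0.10. All 3 relations rest largely on those libraries. Within litters 1 and 3 (8 libraries, deviations from litter means), which lack the same 2 libraries, r was -0.28, 0.30 and 0.14. Without male +/+ replicate 1 alone it was 0.628, 0.528 and 0.3. For deviations from group means over all 10 libraries it was 0.781, 0.675 and 0.617.

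The lowest r joined the steady gap junction gene to Sparcl1. It was -0.83 for Gja1 and Sparcl1 (rho -0.70, permutation p 0.00266, adjusted 0.0958), -0.74 for Gfap and S100b (rho -0.54, permutation p 0.00972, adjusted 0.117) and -0.67 for Aqp4 and Gja1 (rho -0.79, permutation p 0.0386, adjusted 0.211). Without the 2 libraries farthest from the median these were -0.77, -0.58 and -0.72, and within litters 1 and 3 they were -0.89, -0.74 and -0.70. The range of Gja1 was small, 130 to 170 CPM, and its highest library, male E147A/+ replicate 3, was the lowest in Sparcl1 and Aqp4.

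**Figure D4:**
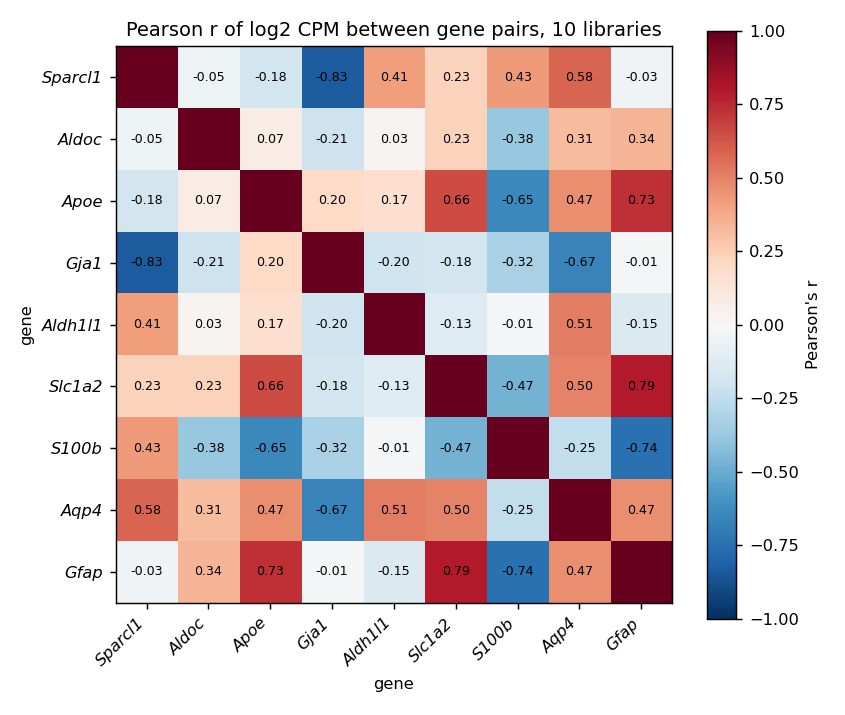
Pearson's r of log2 CPM between each pair of the 9 genes over 10 libraries. Gfap, Slc1a2 and Apoe have r of 0.66 to 0.79 with each other, Gja1 and Sparcl1 have -0.83, and no pair passed an adjusted p of 0.05.

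Over the same 10 libraries, the genes most like the mean z-score of the 9 members were Ip6k1 (Pearson's r 0.93), Asap3 (0.92), Pdcd4 (0.91), Stx5a (0.90), Cul9 (0.90), Ypel5 (0.90), Rxrb (0.90), Zkscan4 (0.89), Eci2 (0.88) and Ermard (0.88). None is in any of the astrocyte gene lists used here. These r are the highest among 17101 genes over only 10 libraries and were not tested. The mean z-score was 0.94 in male +/+ replicate 1 and at most 0.34 elsewhere, so that library weighs most in them. Gene by gene, the closest were Ncor1 for Gfap (0.95), Stx5a for Aqp4 (0.90), Pisd for Aldh1l1 (0.93), Inka2 for S100b (0.92), Pik3c2b for Slc1a2 (0.96), Kcnj15 for Aldoc (0.88), Hspa9 for Gja1 (0.94), Zfp61 for Sparcl1 (0.97) and Pfn4 for Apoe (0.98). The next 2 were Tnks2 and Ttc39b for Gfap, Zfp212 and Abat for Aqp4, Mrpl42 and Mrpl45 for Aldh1l1, Mir3060 and Dusp7 for S100b, Bbx and Zfp459 for Slc1a2, Gm23257 and Oaz2-ps for Aldoc, Dusp9 and Morc4 for Gja1, Fbxw10 and Npepps for Sparcl1, and Neo1 and Ier5 for Apoe. Out of 17101 other genes, 375 reached an r above 0.8 with Sparcl1, 365 with Apoe, 320 with Slc1a2, and 10 with Aldh1l1. These were 0.06% of genes for Aldh1l1 and 2.19% for Sparcl1, with the other members between them.

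The 4 female libraries also had counts assigned to the 129 or the Cast allele, which the labels give as paternal. The Cast share of each gene was set beside the median share of genes within 5 Mb that had at least 20 allelic counts. How reads were assigned to alleles is not given in the sources used here, and intervals cover counting error only. By the labelled cross every autosomal locus would hold 1 Cast allele. Against this, the neighbours of Sparcl1 had median Cast shares of 0.377% to 0.800% in all 4 libraries, and those of Gja1 and Aldoc were at 0.0907% to 1.52% and 0.154% to 0.42% in 3 libraries each. The reason was not tested. Slc1a2 had a lower Cast share than its surroundings in all 4 libraries. It was 33.8% and 39.6% in +/+ replicates 1 and 2 and 35.3% and 19.7% in E147A/+ replicates 1 and 2, with a mean of 32.1% ± 8.62 (SD, n = 4). Its neighbours had medians of 48.4% to 49.9%. The 95% Wilson intervals were 29.9 to 37.9, 36.8 to 42.4, 33.2 to 37.6 and 16.4 to 23.5, on 492 to 1800 allelic counts. Of the neighbours, 0 of 30, 3 of 32, 4 of 32 and 0 of 33 had a lower share than Slc1a2. The lowest share, in E147A/+ replicate 2, went with the lowest Slc1a2 level of the 10 libraries, 20.5 CPM.

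Aldh1l1 could be read in 2 of the 4 libraries, since in +/+ replicate 1 and E147A/+ replicate 2 its neighbours had a median Cast share of 0.732% and 0.193%. In +/+ replicate 2 and E147A/+ replicate 1 its Cast share was 33.3% (95% Wilson interval 30.0 to 36.7) and 32.6% (30.8 to 34.4), with neighbours at 48.5% and 49.2%. Only 3 of 71 and 3 of 75 neighbours had a lower share. These libraries were the lower of the +/+ and the higher of the E147A/+ libraries in Aldh1l1 level, 37.4 and 112 CPM. Aqp4 lay above its neighbours in 2 libraries. Where these were near equal shares (medians of 54.1% and 52.1%), its Cast share was 67.7% (57.7 to 76.4) in +/+ replicate 1 and 73.7% (58.0 to 85.0) in E147A/+ replicate 2, on 93 and 38 allelic counts. In +/+ replicate 2 and E147A/+ replicate 1 it had 0 of 30 and 0 of 99 allelic counts from Cast, which allows a share of up to 10% and 3.03% at 3 counts (95% Wilson upper limits 11.4% and 3.74%), against neighbour medians of 22.0% and 20.6%. Within 2 Mb the medians were 2.06% and 0.628% (8 and 9 neighbours), inside those limits, so in these libraries Aqp4 could not be told from its nearer neighbours.

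Apoe and Gja1 were close to their neighbours where these had nearly equal shares. Apoe was at 48.7% in both +/+ replicate 2 (41.9 to 55.6) and E147A/+ replicate 2 (40.8 to 56.6), and its neighbours at 48.6% and 48.7%. In the other libraries Apoe lay below its neighbours, at 0.323% against 21.1% in +/+ replicate 1 (69 of 76 neighbours higher) and 2.22% against 22.3% in E147A/+ replicate 1 (63 of 79 higher). Gja1 was at 50.8% in E147A/+ replicate 2 (48.2 to 53.3), as were its neighbours. Sparcl1 had a Cast share of 1.44% to 1.67% in each library, so nearly all of its counts were assigned to 129 in every female. Aldoc was at 5.53% (4.74 to 6.43) in +/+ replicate 1, where its neighbours spread widely (quartiles 1.88% and 50.9%), and at 0.0449% to 0.114% in the other libraries. Gfap and S100b had 3 to 19 and 3 to 16 allelic counts, too few to read.

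**Figure D5:**
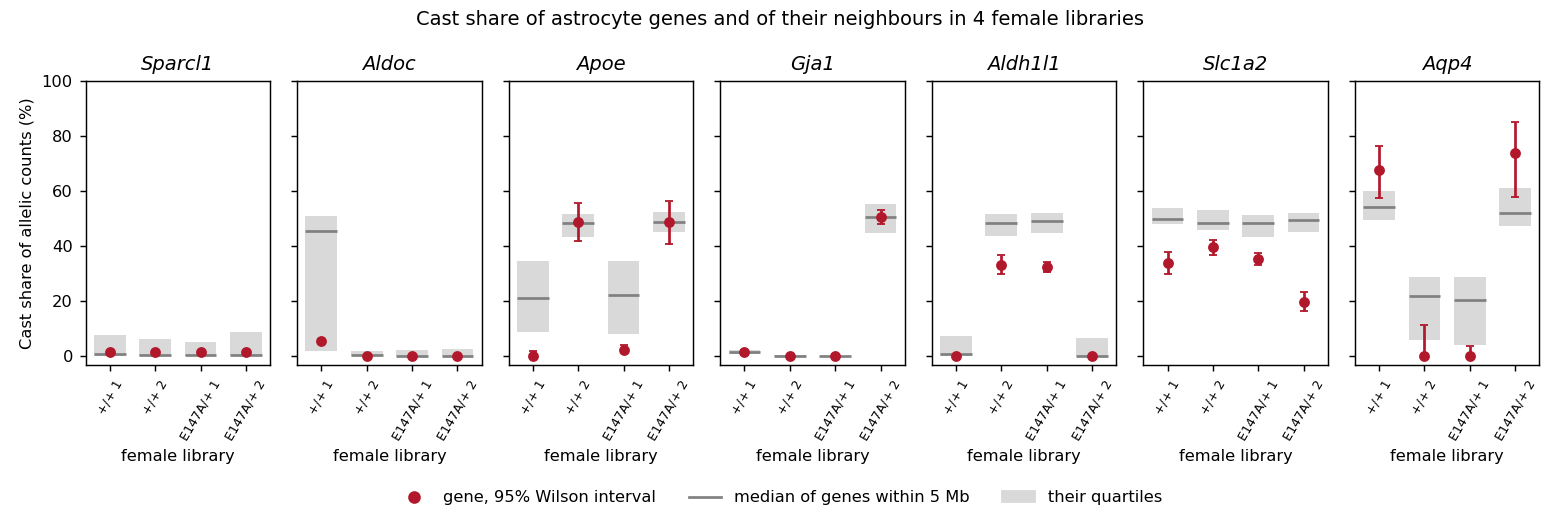
Cast share of allelic counts in 4 female libraries for the 7 genes with at least 20 allelic counts in each of them; points are the gene with its 95% Wilson interval, lines the median and bars the quartiles of genes within 5 Mb. Slc1a2 lies below its neighbours in each library, at 19.7% to 39.6% against 48.4% to 49.9%.

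Other genes of astrocyte function gave the surroundings of these 9. In the genotype comparison over both sexes none of the lists held a gene past the threshold, against 0.0818% of tested genes. Among 12 transport genes, 9 were lower in E147A/+, with a median log2 fold change of -0.21. Glul (glutamine synthetase) was at -0.36 (SE 0.12), Kcnj10 (the Kir4.1 potassium channel) at -0.87 (SE 0.28) and Slc6a11 (the GABA transporter GAT-3) at -0.71 (SE 0.26), with adjusted p of 0.727 to 0.786 in edgeR. Among 12 tested lipid genes, 9 were lower, with a median of -0.30; Abca1 and Abcg1, which load cholesterol onto lipoproteins, were at -1.19 (SE 0.47) and -0.95 (SE 0.38), and Fabp7 at -0.41 (SE 0.21). Among 19 other astrocyte-enriched genes, 14 were lower, with a median of -0.45; Mt1 was at -0.45 (SE 0.16), Ednrb at -1.03 (SE 0.51) and Pla2g7 at -0.65 (SE 0.36). The median over all tested genes was -0.01. Among 7 tested endfoot genes, 5 were lower (median -0.16), and Mlc1, Dmd and Hepacam were at -0.38, -0.38 and -0.31. Among 13 tested filament and reactive genes, 8 were lower (median -0.10), and Cd44, Cp and Vim were at 0.50, -0.80 and 0.47. The 12 secreted and matrix genes split evenly, 6 higher and 6 lower (median -0.09), and Ptprz1, Chrdl1 and Thbs2 were at -0.35, -0.91 and -0.92. Among 12 gliogenic regulators, 8 were lower (median -0.17), and Hes1, Hes5 and Il6st were at 0.63, -1.13 and -0.33. Among 14 tested paralogs of the 9 genes, 10 were higher, with a median of 0.33; S100a10 was at 0.65, Aldoa at 0.70 and Aqp9 at 0.64. Marker lists of other cells were also mostly lower in E147A/+: 6 of 6 cycling markers (median -0.31), 6 of 8 neuron markers (-0.25), 6 of 8 tested oligodendrocyte lineage markers (-0.43), 4 of 5 endothelial markers (-0.95) and 5 of 6 mesenchymal markers (-0.37). Of the 9 neural stem cell markers 5 were lower (-0.03). In males, however, 6 of 8 neuron, 4 of 6 mesenchymal and 3 of 5 endothelial markers were higher (medians 0.50, 0.46 and 0.09). In females, where genotype and litter cannot be told apart, 7, 5 and 5 of them were lower (-0.63, -1.12 and -1.16). Over both sexes 1 marker gene of another lineage passed: Gpr17, of oligodendrocyte precursors, fell by 4.98 on the log2 scale (SE 0.65, adjusted p 0.0249 in edgeR), from 0.955 to 4.62 CPM in +/+ to 0 to 0.134 in E147A/+. It passed in only 2 of the 10 fits that leave out 1 library each, where its adjusted p was 0.0244 to 0.37 in edgeR, and was at 0.74 with litter as a covariate. Its log2 fold change stayed at -5.48 to -4.71 in those 10 fits and was -5.03 with litter as a covariate. Pdgfra and Sox10 of the same lineage did not pass, and the part of these marker lists in the astrocyte genes was not tested.

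The number of litter calls changed with single libraries: 541 genes passed, but 4, 5 and 15 without male E147A/+ replicate 3, 1 or 2. It was 19 without female E147A/+ replicate 1, and each of these fits also had fewer residual degrees of freedom. When any of these 4 libraries was left out, 0 of the 9 genes called here passed, with adjusted p of up to 0.405 in edgeR, though each kept its direction whichever library was left out. With all libraries, 4 of 12 gliogenic regulators passed, against 3.16% of tested genes. Hes1 and Hes5, effectors of Notch signalling, fell in litter 3 by 1.15 (SE 0.13) and 1.67 (SE 0.33) on the log2 scale. Id1 and Id3, targets of BMP signalling, rose by 1.27 (SE 0.25) and 1.12 (SE 0.20), with adjusted p of 0.0141 to 0.0418 over these 4 in edgeR. Among 19 other astrocyte-enriched genes Ntsr2, a neurotensin receptor, fell by 2.15 (SE 0.32, adjusted p 0.0232 in edgeR). Among 12 matrix genes Bcan (brevican) fell by 0.72 (SE 0.14, adjusted p 0.0398 in edgeR), and among 13 filament and reactive genes Synm (synemin) rose by 1.52 (SE 0.30, adjusted p 0.0423 in edgeR). No gene passed among 12 transport, 7 endfoot and 12 lipid genes or 14 paralogs, though 11 of 12 transport genes were lower in litter 3, with a median of -0.43. Of the marker lists, Pou3f2 of the neural stem cell list fell by 1.16 (SE 0.22) and Col3a1 of mesenchyme rose by 3.36 (SE 0.58).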

How the data were processed

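Poly(A) RNA from 10 cultures was sequenced as 80 bp paired-end reads from stranded libraries, per the labels' protocols. For all 10 libraries the authors deposited raw gene counts, and for the 4 females also counts by allele. Trim Galore 0.4.4, HISAT2 2.0.5, R 3.5.1, featureCounts, edgeR 3.24.0 and GRCm38/mm10 are named in the submitters' processing notes; use of strand in counting is not given in the sources used here. Libraries were grouped by sex, genotype and litter from the labels.

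Here genes were filtered by filterByExpr over the 4 groups (17110 of 52632 kept), scaled with TMM factors and tested by the quasi-likelihood F test of edgeR 4.0.16 under R 4.3.3, with Benjamini-Hochberg adjustment over all tested genes at 0.05. One fit had a mean per group (6 residual degrees of freedom), the other sex, genotype and litter as terms (4). Log2 CPM used a prior count of 2. RPKM used exon lengths of GENCODE, in which 98.4% of the table's genes had the same start and end. Correlations had 100000 permutations. Alternatives were RLE and upper-quartile scaling, DESeq2 1.42.0, limma-voom 3.58.1, other filters, litter as a covariate, a replicate block, a 2 Mb window for neighbours and leaving out each library; a fit without litters 2 and 4 and a crossed female pairing were added after the data were seen. On simulated counts 56% of 100 genes with a log2 genotype change of 1 were recovered and 98% with 3 (16780 genes, 6 false calls), and for litter 9% and 87% (16793 genes, 5 false calls). The changed genes were drawn at random above a minimum mean count that Gfap does not reach. Simulated libraries of 1 litter shared nothing beyond the change set. Apoe, Slc1a2 and Sparcl1 vary more than most genes of their level, so these shares are not those of the 9 genes.

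The 9 genes and the gene lists were chosen with earlier results of these data known. Other genes are named if they passed in any comparison, or as the 3 lowest p per list over both sexes; Slc1a3, Prom1, Sox2, Map2, Olig1, Olig2 and Mog, given as levels only, were chosen after their values were seen; the likest genes are the 10 with the highest r to the members' mean and 3 per member. Promoters are RefSeq's, matched by symbol for 7 of the 9 genes and shown for 3.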

Additional observations from a re-analysis of the deposited data

Results flagged for a closer look

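Each gene was examined for a single library standing apart within a sex, a genotype or a litter. Dixon's test was run on CPM, not on its log, and 9 of 54 such groups had one. The limits give 5% of groups by chance only for normal values. Whether CPM meets this was not tested, so the count is not set against 5%. In male +/+ replicate 1, the litter 4 culture, Gfap was at 4.93 CPM among the 5 +/+ libraries, where the next was 1.17. Slc1a2 was at 257 CPM there, apart both among the +/+ libraries (next 67.7) and among the 6 males (next 106). Apoe was at 281 CPM among the +/+ libraries (next 82.2), and Aqp4 at 8.42 CPM among the males (next 1.46). These 5 groups share 1 library and are not independent.

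Gfap in male E147A/+ replicate 2 was at 2.68 CPM among the 5 E147A/+ libraries, where the next was 0.798. Aqp4 in female +/+ replicate 1 was at 3.92 CPM among the 4 libraries of litter 3, where the next was 1.00. Sparcl1 in male E147A/+ replicate 2 was at 531 CPM among the 4 libraries of litter 1, where the next was 868. Gja1 in female +/+ replicate 2 was at 143 CPM among the 4 females, where the next was 135.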

How the results depend on the processing

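No member passed in any genotype, sex or interaction comparison under any setting tried, leaving out each library included. For litter 3 minus litter 1, 2 members passed in DESeq2 and 3 without a filter on low counts, where 1977 and 2110 of all genes passed. Without single libraries 0 to 1 members passed, where 4 to 1290 of all genes did. The main fit called 0 members and 541 of all genes. What the depth limits is the low genes: Gfap (4 to 143 counts) was not tested when 10 counts were required in every library. Where 1 female was left out, its group had 1 library, which is assumed to vary like the others. The fit without litters 2 and 4 and the crossed pairing were chosen after the data were seen. The cause of the changes below was not tested. In limma-voom the litter calls of Hes5, Id3, Bcan, Synm and Pou3f2 were lost (adjusted p 0.0507 to 0.0589), and that of Gpr17 for genotype was lost with the replicate block (0.0885) and without litters 2 and 4 (0.545).

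With neighbours within 2 Mb in place of 5 Mb, the median Cast share around Aqp4 moved from 22.0% to 2.06% in female +/+ replicate 2 and from 20.6% to 0.628% in female E147A/+ replicate 1.

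Counts of all genes called moved as follows. Over both sexes 14 genes passed for genotype, and 113 in DESeq2, 29 in limma-voom, 33 without a filter, 9 with 10 counts in every library, 3 with litter as a covariate, 4 without litters 2 and 4, and 2 to 12 without single libraries. In females 2 passed, and 46 in DESeq2, 8 without a filter, 1 with upper-quartile scaling, 1 with only the groups compared, 0 with litter as a covariate, 0 without litters 2 and 4, and 0 to 2 without single libraries. In males 4 passed, and 48 in DESeq2, 9 in limma-voom, 14 without a filter, 2 with litter as a covariate, 1 with only the groups compared, 2 without litters 2 and 4, and 1 to 4 without single libraries. For the interaction 0 passed, 2 in DESeq2, 1 with litter as a covariate, 1 without litters 2 and 4, and 0 to 1 without single libraries. For sex 5 passed, 10 in DESeq2, 0 with 10 counts in every library, 9 with litter as a covariate and 9 without litters 2 and 4. For litter 541 passed, 1977 in DESeq2, 2110 without a filter, and 4 to 1290 without single libraries. It was 4 without male E147A/+ replicate 3, 5 without male E147A/+ replicate 1, 15 without male E147A/+ replicate 2, 19 without female E147A/+ replicate 1, 106 without male +/+ replicate 2, 255 without female +/+ replicate 1 and 1290 without male +/+ replicate 3.

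Same-numbered libraries are different embryos, and their deviations correlated at -0.304 in females and at -0.238, 0.416 and 0.034 in males, so the numbers were not taken as a pairing. With the replicate block 10 genes passed over both sexes (9 shared with the fit without it), 0 in females, 3 in males, 0 for the interaction and 5 for sex, with 0 members in each. With the block and the female numbers crossed these were 8, 0, 3 and 0, without sex. Under the replicate block these log2 fold changes changed sign: Aqp4 in females to 0.048, Slc1a2 in females to -0.26, Gfap in males to 0.11, Apoe in the interaction to -0.31, and for sex Aldoc to -0.015, Aqp4 to -0.021, S100b to 0.10 and Sparcl1 to -0.19.

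Other changes of sign, none of a called value, were these. With litter as a covariate the log2 fold change over both sexes was 0.52 for Apoe, -0.16 for S100b, 0.074 for Slc1a2 and -0.54 for Sparcl1. In females it was 0.60 for Apoe, 0.15 for Gja1, -0.27 for Slc1a2 and -0.48 for Sparcl1, and in males 0.027 for Aldh1l1, 0.44 for Apoe, 0.74 for Gfap and 0.41 for Slc1a2. In the interaction it was -0.08 for Aqp4 and -0.68 for Slc1a2, and for sex 0.12 for Slc1a2. Without litters 2 and 4 it was over both sexes 0.32 for Apoe, 6e-04 for Aqp4, 0.44 for Gfap, -0.14 for S100b and 0.69 for Slc1a2. In females it was then 0.39 for Aqp4 and 0.017 for Gfap, in males 0.053 for Aldh1l1, 0.64 for Apoe, 0.86 for Gfap and 0.56 for Slc1a2, and in the interaction -0.65 for Apoe. In limma-voom it was in females 0.13 for Aqp4 and -0.070 for Slc1a2, in males 0.015 for S100b, in the interaction -0.017 for Slc1a2 and for sex -0.12 for Sparcl1. Aldoc for sex, at 0.0041, was at -0.0074 in DESeq2 and with RLE scaling, -0.024 with upper-quartile scaling and -0.0025 with 10 counts in every library.

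Without single libraries, the log2 fold changes that changed sign had these ranges. Over both sexes Gfap ran from -1.81 to 0.010, Slc1a2 from -0.88 to 0.36 and Apoe from -1.03 to 0.026. In females Gfap ran from -2.99 to 0.017, Aqp4 from -0.83 to 1.17, Slc1a2 from -1.04 to 0.83, Aldoc from -0.14 to 0.20 and Gja1 from -0.098 to 0.018. In males Gfap ran from -1.56 to 0.85, Aldh1l1 from -0.47 to 0.036, S100b from -0.85 to 0.24, Slc1a2 from -1.20 to 0.54 and Apoe from -1.43 to 0.63. In the interaction Gfap ran from -2.36 to 0.73, Slc1a2 from -0.37 to 1.56 and Apoe from -1.21 to 0.85. For sex Aqp4 ran from -0.18 to 1.31, S100b from -0.41 to 0.24, Aldoc from -0.083 to 0.087 and Sparcl1 from -0.19 to 0.40. For litter Aldh1l1 ran from -0.99 to 0.55, S100b from -0.83 to 0.49, Aldoc from -0.16 to 0.10 and Apoe from -1.01 to 1.82.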
